A study of Homo sapiens with 6 samples.

Results

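The 10 cadherin genes described here are CDH1, CDH2, CDH3, CDH4, CDH6, CDH11, CDH13, CDH17, CDH18 and CDH24. They were taken by symbol from the gene tables of every library, and each has a row among the 16779 genes listed. RNA-seq was done on 6 libraries that the labels give as A549, a line from a human lung adenocarcinoma, with total RNA as the starting molecule. In 3 of them the genotype is given as WT (the control group) and in 3 as RN7SK knockout, and neither group has any other agent, dose or time in its labels. RN7SK encodes 7SK, a small nuclear RNA that holds the elongation kinase P-TEFb inactive. The labels name no guide and no clone. They also do not say whether the libraries of a group came from separate cultures, so the p-values measure only the spread between these libraries, which may be technical.

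Cadherins are calcium-dependent adhesion proteins of the cell surface. The classical ones bind their like on the next cell through the outermost cadherin domain, and their cytoplasmic tails hold beta-catenin, p120-catenin and, through alpha-catenin, actin. In epithelia E-cadherin is the main cadherin of the adherens junction, while N-cadherin is best known from neural and mesenchymal cells, and many carcinoma lines make both. Atypical members lack parts of this plan: T-cadherin has no tail and is held by a lipid anchor, and LI-cadherin has a short tail that does not hold catenins.

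The reference sequence at the start of the mature proteins shows how the members other than CDH17 fall into classes. No stretch is shown for CDH17. Each stretch below, read 5′ to 3′ from GRCh38 (GENCODE v29 coding sequence), holds 4 codons of the site where the propeptide is cut off, followed by the first 6 codons of the mature protein. Capitals mark TGG, the tryptophan codon, whose residue docks into the partner cadherin when classical cadherins pair.
CDH1: agacagaagagagacTGGgttattcctccc
CDH2: aggcagaagagagacTGGgtcatccctcca
CDH3: agacacaagagagatTGGgtggttgctcca
CDH4: cggcgcaaacgggacTGGgtcatcccgccc
CDH6: cgttcaaaaaggagcTGGatgTGGaatcag
CDH11: cgctccaagcgtggcTGGgtcTGGaaccag
CDH18: cgtcccaaaaggggaTGGgtaTGGaatcag
CDH24: cggactcgaaggagcTGGgtcTGGaaccag
CDH13: agacaaaagaggtccattgtggtatctccc
The first 4 genes have 1 tryptophan codon, at codon 2 of the mature protein, the mark of type I cadherins. CDH6, CDH11, CDH18 and CDH24 have a pair, at codons 2 and 4, the mark of type II cadherins. CDH13 has none among its first 6 mature codons. The stretches of CDH1, CDH3 and CDH13 lie on the plus strand of chromosome 16, at chr16:68808487-68808516, chr16:68678197-68678226 and chr16:83125421-83125450, and that of CDH11 on its minus strand at chr16:65004693-65004722. The stretch of CDH2 is at chr18:28011897-28011926 (minus), that of CDH4 at chr20:61773102-61773131 (plus), that of CDH6 at chr5:31267621-31267650 (plus), that of CDH18 at chr5:19838810-19838839 (minus) and that of CDH24 at chr14:23055584-23055613 (minus). All lie in coding exons.

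The total count per library was 18612303 to 19357144 in control and 16018260 to 18488790 in the knockout group. RN7SK has no row in the tables, so the targeted gene gives no check of the knockout label. The control libraries went against the cell line named for them: CDKN2A, which A549 cells are known to lack, had 2891 counts over the control libraries and 3 over those labelled knockout, and its neighbour CDKN2B had 695 and 1. MTAP, beside them, fell from 45.3 ± 1.66 to 13.1 ± 1.17 CPM, the count after each library is scaled to the same size (mean ± SD, n = 3 in each group here and below). Groups are therefore named by their labels, and higher or lower always describes the knockout label relative to the control label. Cell line, genotype and any difference in how the tables were made cannot be told apart.

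Markers of other cells moved with the groups, as did most genes: over all 12929 tested genes, 85.0% were called, 42.0% as higher and 43.0% as lower. Of 15 lung epithelial and A549 markers, 10 were tested and all 10 were higher in the knockout group, with a summed level of 5850.2 to 6128.5 CPM in control and 16980.7 to 17368.1 CPM in the knockout libraries. SFTPB was at 0 throughout, and EPCAM, an epithelial surface protein, had 30 counts over the control and 23 over the knockout libraries. Of the 9 listed endothelial markers, 4 were tested and all 4 were lower, 3 of them having passed the filter through the control libraries alone, which fixes their direction. The summed level of the list went from 162.5 to 175.2 CPM down to 4.19 to 4.92 CPM. TIE1 was at 0 in both groups, VWF at 0 in the control, and PECAM1 had 2 and 7 counts. Fibroblast markers (3 tested genes higher, 1 lower, summed 73.8 to 78.0 against 116.2 to 123.8 CPM) and haematopoietic markers (3 higher, 0 lower, 37.6 to 41.7 against 59.0 to 63.5 CPM) also differed. Of the tested neuronal and glial markers, 4 were higher, 1 of them tested through 1 group alone, and 2 were lower. The sums of that list overlapped, at 393.9 to 427.8 against 411.8 to 431.8 CPM. COL1A2 and DCN were at 0 in the control group, CD3E in both, and ELAVL4 in the control. The part these differences play in the cadherin values was not tested, and in bulk RNA fewer cells of a type and less RNA per cell cannot be told apart.

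In the libraries labelled knockout, E-cadherin mRNA was 5.42-fold higher and N-cadherin mRNA 1.27-fold higher, kidney cadherin CDH6 and LI-cadherin CDH17 were 4.04-fold and 4.77-fold higher, CDH24 was 1.28-fold lower, and T-cadherin went from between 275 and 351 counts per library to 0 or 1. Of the 10 genes, 6 passed the low-count filter, 4 of them rose and 2 fell, and none missed the threshold of 0.05 (edgeR quasi-likelihood test, Benjamini-Hochberg adjusted). Beside the 85.0% of all tested genes that were called (42.0% higher, 43.0% lower), being called does not set these 6 apart. Their groups did not overlap in CPM, which held for 85.6% of all tested genes. CDH1, CDH6, CDH13 and CDH17 were called and changed at least 4-fold, as did 14.1% of all tested genes. CDH13 passed the filter through its control libraries alone, so its difference was built into its being tested. The median log2 fold change of the 6 was 1.18, against -0.01 over all tested genes.

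**Figure D1:**
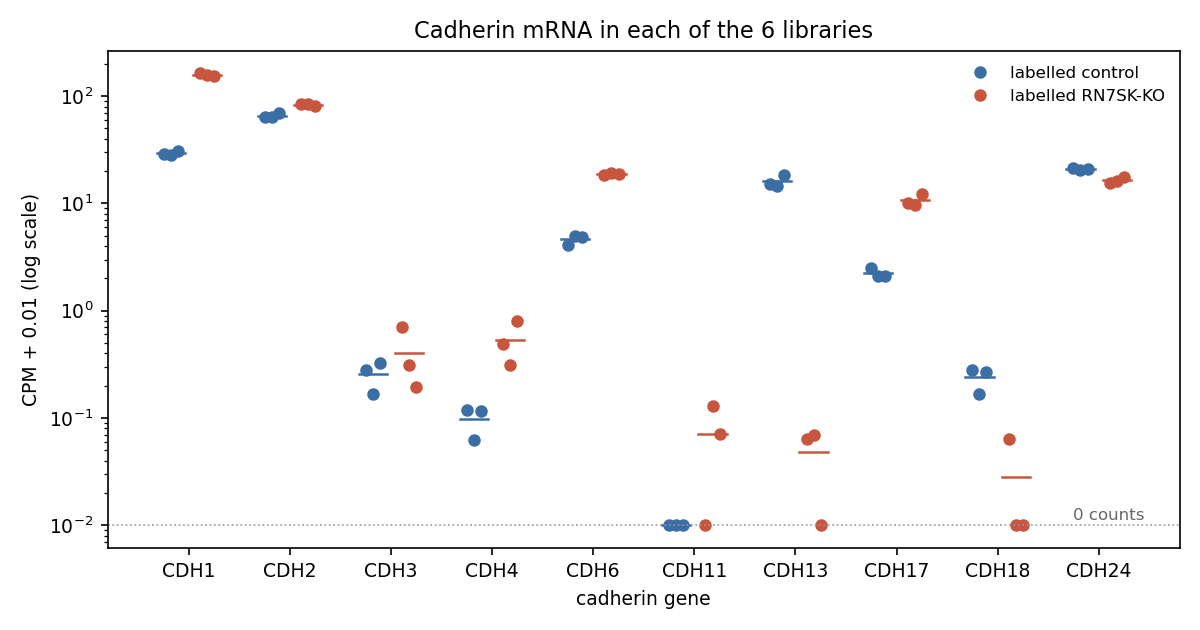
CPM plus 0.01 on a log axis for each of the 10 cadherin genes, with 1 point per library and a bar at the group mean (labelled control in blue, labelled RN7SK-KO in red; 3 libraries each). CDH1 and CDH2 are the highest in both groups by count, CDH13 drops to 0 or 1 count per library, and CDH3, CDH4, CDH11 and CDH18 lie below 1 CPM everywhere.

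CDH1 encodes E-cadherin (chromosome 16, 68737292 to 68835537, GRCh38). It had 533, 534 and 590 counts in the control replicates and 3033, 2638 and 2511 in the knockout replicates, or 29.2 ± 1.48 and 158.4 ± 4.38 CPM. Every knockout library was above 154 CPM and every control library below 31 CPM, so the groups stood far apart. The log2 fold change was 2.44 ± 0.056 (fit ± SE; edgeR quasi-likelihood adjusted p = 8.44e-29).

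CDH2 encodes N-cadherin (chromosome 18, 27932879 to 28177130). Its counts were 1189, 1225 and 1325 in control and 1558, 1427 and 1322 in the knockout replicates. Scaled to library size these were 64.2, 64.1 and 69.3 CPM against 83.8, 85.3 and 81.3 CPM: raw counts of the groups overlapped, CPM did not. It rose by a log2 fold change of 0.34 ± 0.054 (edgeR quasi-likelihood adjusted p = 6.06e-07), less than the median absolute change of 0.65 over all tested genes. The call was lost when the test asked for a change beyond 1.5-fold (glmTreat in edgeR).

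The other 2 type I cadherins were near the limit of detection. CDH3, P-cadherin of basal epithelia (chromosome 16, 68645310 to 68733771), lies 3.52 kb from CDH1 and had 5, 3 and 6 counts in control and 13, 5 and 3 in the knockout libraries. The groups overlapped, and the summed ratio of knockout to control was 1.65 (95% exact counting interval 0.8 to 3.51). CDH4, R-cadherin, first known from retina (chromosome 20, 61252261 to 61940617), had 2, 1 and 2 counts against 9, 5 and 13. All knockout libraries were above all control ones, with a ratio of 5.94 (2.25 to 19.8). CDH4 was not tested in the main comparison, and passed when no low-count filter was used (edgeR quasi-likelihood adjusted p = 0.00132) and in DESeq2 (adjusted p = 0.0108). These intervals cover counting error only.

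CDH6, a type II cadherin known from the developing kidney (chromosome 5, 31193686 to 31329146), had 76, 95 and 93 counts in control and 340, 325 and 304 in the knockout libraries. That is 4.65 ± 0.473 against 18.8 ± 0.575 CPM, and all knockout libraries were higher than every control library. The log2 fold change was 2.01 ± 0.11 (edgeR quasi-likelihood adjusted p = 1.4e-17). On the deposited FPKM scale, which divides by gene length, the same gene differed by 8.51-fold, from 0.412, 0.496 and 0.485 to 3.83, 4.06 and 3.96. The lengths behind the FPKM, recovered from count and FPKM, were 9742 bases in control and 4720 bases in the knockout tables, a ratio of 2.06. With these lengths as an offset the log2 fold change was 3.06. In GENCODE v29 the longest CDH6 transcript has 8476 bases and the union of its exons 12379.

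**Figure D2:**
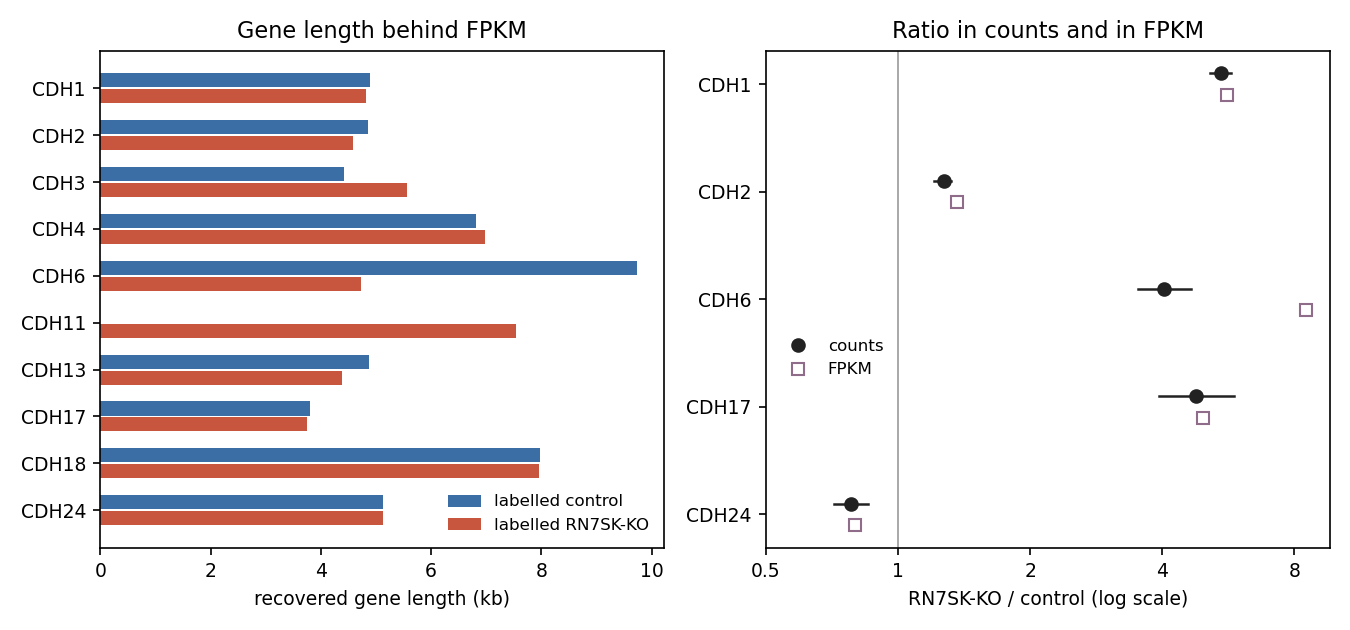
Left, the gene length in kilobases recovered from count and FPKM in the tables of each group (no bar for CDH11 in the control, where every count is 0). Right, the ratio of knockout to control on a log axis for 5 tested members, from summed counts (filled, with 95% exact counting intervals) and from mean FPKM (open). CDH6 is the member whose recovered lengths differ most, 9742 against 4720 bases, and its ratios lie farthest apart, 4.04 in counts against 8.51 in FPKM; the FPKM ratio of CDH2, 1.36, also lies outside its counting interval of 1.21 to 1.32.

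The other members had closer lengths in the 2 sets of tables. The ratio of control to knockout length was between 0.976 and 1.11 for CDH1, CDH2, CDH4, CDH13, CDH17, CDH18 and CDH24, and 0.794 for CDH3. Accordingly the FPKM ratio was close to the count ratio for CDH1 (5.61 in FPKM), CDH17 (4.95) and CDH24 (0.798), and 1.36 for CDH2. Over all 14582 genes with a length in both groups, 32.3% agreed within 1%.

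CDH11, OB-cadherin of bone-forming and mesenchymal cells (chromosome 16, 64943753 to 65123744), had 0 counts in each control library and 0, 2 and 1 in the knockout libraries, at or under the floor of 3 counts over a group. CDH18, a type II cadherin known mainly from brain (chromosome 5, 19471296 to 20575713), had 5, 3 and 5 control counts against 1, 0 and 0. Its summed ratio of control to knockout was 11.8 (95% exact counting interval 1.78 to 502.3), and every control library was above every knockout library. CDH18 passed without the low-count filter (edgeR quasi-likelihood adjusted p = 0.0139) and in DESeq2 (adjusted p = 0.0431). Both genes were left untested in the main comparison, and at this depth they amount to a few reads.

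CDH24, a less studied type II cadherin (chromosome 14, 23047067 to 23057520), had the highest control level, in CPM and FPKM, of the 4 type II members. It had 395, 391 and 400 counts in control and 290, 268 and 284 in the knockout libraries, or 20.9 ± 0.432 and 16.4 ± 0.983 CPM. The highest knockout library, 17.5 CPM, was below the lowest control library, 20.5 CPM. It fell by 0.36 ± 0.083 on the log2 scale (edgeR quasi-likelihood adjusted p = 0.000217). Like that of CDH2, this call was lost against a change of 1.5-fold (glmTreat in edgeR).

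CDH13 encodes T-cadherin, the lipid-anchored member and a receptor for adiponectin and low-density lipoprotein (chromosome 16, 82626969 to 83800640). Control replicates 1 to 3 had 284, 275 and 351 counts and knockout replicates 1, 1 and 0. The control libraries were thus at 15.3, 14.4 and 18.3 CPM, and no knockout library reached 0.06 CPM. Summed over libraries, 910 control counts stood against 2, a ratio of 413.7 (95% exact counting interval 114.2 to 3421.1). The fitted log2 fold change of -8.46 depends on how a library with 0 counts is treated and was -2.05 on log2(FPKM + 1); the edgeR quasi-likelihood adjusted p was 4.95e-23. Endothelial cells are a known source of T-cadherin, and the endothelial list went both ways: ESAM (6250 counts over the control and 151 over the knockout libraries), ENG (3101 and 12), ROBO4 (108 and 7) and CDH5 (94 and 15) were lower. KDR (5 and 32), VWF (0 and 8), PECAM1 (2 and 7) and TEK (1 and 7) had more counts in the knockout libraries and were not tested, and TIE1 was at 0 in both; whether any of this bears on CDH13 was not tested.

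CDH17 encodes LI-cadherin of liver and intestinal epithelium (chromosome 8, 94127162 to 94217278). Its counts were 46, 40 and 40 in control and 187, 163 and 197 in the knockout libraries, or 2.22 ± 0.226 and 10.6 ± 1.29 CPM. No knockout library was under 9.7 CPM and no control library above 2.5 CPM. The log2 fold change was 2.25 ± 0.16 (edgeR quasi-likelihood adjusted p = 3.52e-15). CDX2, a known activator of CDH17 in intestine, had 7 counts over the control and 4 over the knockout libraries. HNF4A, a liver and intestinal factor, rose from 3.68 ± 0.186 to 9.15 ± 0.442 CPM. Whether either factor bears on CDH17 was not tested.

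Levels of different genes can be compared per length, so the make-up of the cadherin mRNA was taken from FPKM. In the control group CDH2 had the highest level, 13.2 ± 0.561 FPKM, followed by CDH1 (5.82 ± 0.288), CDH24 (3.97 ± 0.0923), CDH13 (3.20 ± 0.407), CDH17 (0.568 ± 0.0598) and CDH6 (0.464 ± 0.0458). In the knockout group CDH1 came first with 32.7 ± 0.784 FPKM, then CDH2 (18.1 ± 0.334), CDH6 (3.95 ± 0.116), CDH24 (3.17 ± 0.208) and CDH17 (2.81 ± 0.359). CDH24 and CDH17 overlapped there, at 3.01 to 3.40 and 2.57 to 3.23 FPKM. The 4 untested genes stayed below 0.13 FPKM in every library.

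The order of the top pair thus turned between the groups. CDH1 held 21.3 ± 0.0837% of the summed FPKM of the 10 genes in control and 53.7 ± 0.888% in the knockout group, while CDH2 went from 48.4 ± 0.522% to 29.7 ± 0.56%. The ratio of CDH1 to CDH2 was 0.445, 0.433 and 0.442 in the control replicates and 1.85, 1.76 and 1.81 in the knockout replicates. CDH2 itself did not fall: its share is smaller because the sum went from between 26.3 and 28.8 FPKM to between 60.5 and 61.3. CDH13 went from 11.7 ± 0.926% to 0.014 ± 0.0122%, CDH24 from 14.5 ± 0.675% to 5.21 ± 0.372%, CDH17 from 2.08 ± 0.257% to 4.63 ± 0.609% and CDH6 from 1.70 ± 0.183% to 6.50 ± 0.233%.

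With 1 common length per gene in both groups, the share of CDH6 was 2.23% in control and 4.40% in the knockout group, so its place among CDH17 (2.04% and 4.76%) and CDH24 (14.1% and 5.40%) depends on the length used. Under the common length the libraries of CDH6 and CDH17 overlapped in both groups (2.0% to 2.48% and 1.82% to 2.32% in control, 4.22% to 4.54% and 4.36% to 5.48% in knockout), so these 2 have no order, and CDH6 was below CDH24 in every library. The shares of CDH1 were then 20.9% and 55.2%, and those of CDH2 48.4% and 29.9%.

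**Figure D3:**
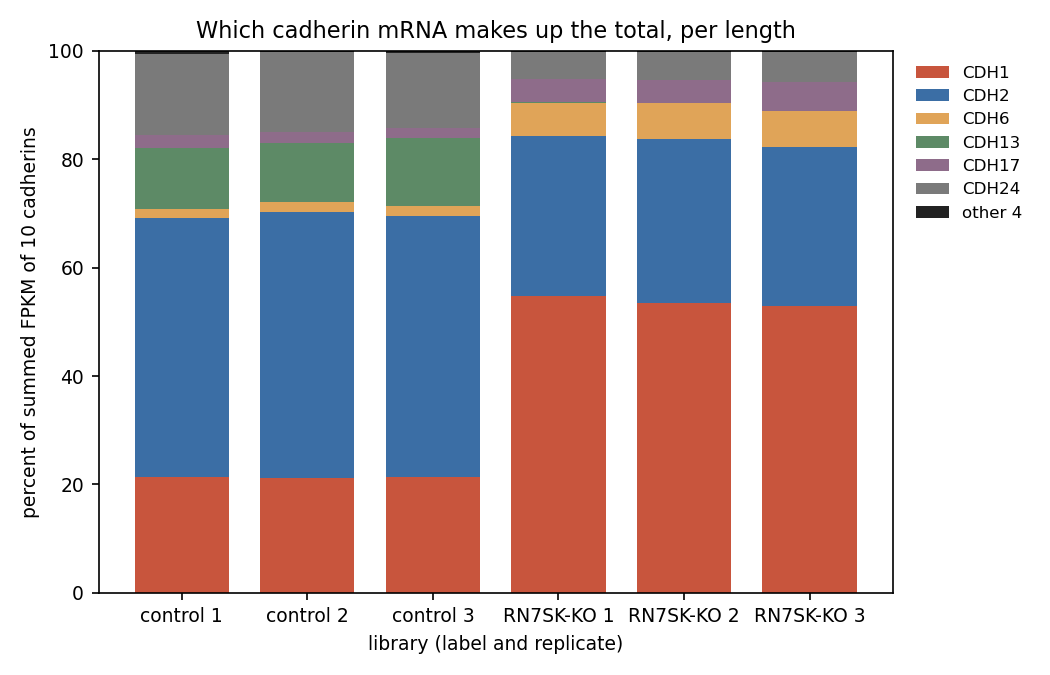
Stacked share, in percent, of the summed FPKM of the 10 cadherin genes in each library; the other 4 are CDH3, CDH4, CDH11 and CDH18. CDH2 takes 47.9% to 49.0% in the control libraries and 29.3% to 30.3% in the knockout libraries, CDH1 goes from 21.2% to 21.3% up to 53.0% to 54.7%, and the CDH13 block is seen in the control libraries alone.

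The genes nearest to the tested cadherins had fold changes on both sides of 0. For CDH1, the nearest tested gene at higher coordinates, TANGO6, had a log2 fold change of -0.24, and HAS3, a hyaluronan synthase, one of -3.05, while ZFP90 on the other side had 0.39. Next to HAS3, CHTF8 had 8149 counts over the control libraries and 0 over the knockout libraries; no length could be recovered for it in the knockout tables. The tested genes nearest to CDH6, DROSHA (-1.04), C5orf22 (-1.42) and PDZD2 (-3.16), were all at higher coordinates and all lower, opposite to CDH6. Those at lower coordinates, CDH9, CDH10 and PRDM9, lie 4155.1 to 7665.6 kb away and were not tested. They had 0, 2 and 0 counts over the control libraries and 1, 36 and 6 over the knockout libraries. CDH13 lies between MPHOSPH6 (-1.62) and HSBP1 (-0.50), with MLYCD (1.75) and OSGIN1 (1.66) beyond. Around CDH17, GEM, a GTPase gene 32.0 kb away, had 3.35, RBM12B (-0.48), TMEM67 (-0.86), PDP1 (-0.74) and RAD54B (-0.58) were lower, and VIRMA (0.06) did not pass. ACIN1, 1.04 kb from CDH24, had -0.01.

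**Figure D4:**
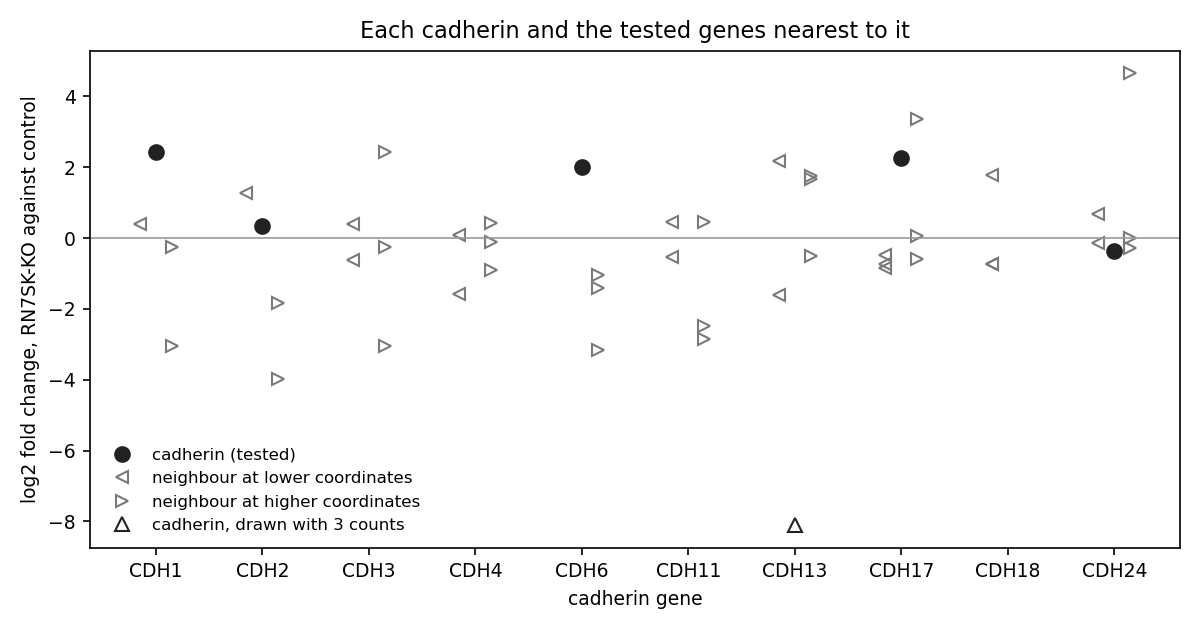
Log2 fold change (knockout against control) of each tested cadherin (filled circle; CDH13 as a triangle, drawn with 3 counts in the knockout group) and of the tested genes among the 3 nearest on each side of all 10 cadherins, untested ones included (open arrowheads; CHTF8 and CDH8, with 3 or fewer counts in a group, are left out). Neighbours lie on both sides of 0 for CDH1 and CDH13, and the 3 tested neighbours of CDH6 lie below 0.

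Promoter sequence from the RefSeq table (GRCh38.p14, 250 bases before to 50 after a start) was matched for CDH2, CDH4 and CDH18, with 7 entries in all. The one at the start of the CDH2 gene is shown because CDH2 is the only one of these 3 with more than a few reads, at chr18:28177081-28177380 on the minus strand, read 5′ to 3′ with capitals for the match to the GC box.
CDH2 promoter: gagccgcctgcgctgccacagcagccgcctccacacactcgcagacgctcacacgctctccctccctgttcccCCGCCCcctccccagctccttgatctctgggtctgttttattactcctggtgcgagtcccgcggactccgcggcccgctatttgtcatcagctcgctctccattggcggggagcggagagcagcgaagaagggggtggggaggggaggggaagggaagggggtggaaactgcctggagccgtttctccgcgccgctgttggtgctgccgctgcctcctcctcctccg
Its GC content is 67.0%, against a median of 58.7% over 35116 promoters of this length. A search on both strands for the GC box GGGCGG, present in 45.0% of all promoters, matched this entry alone among the 7. The E-box CACCTG, the word that SNAI1 and ZEB1 are known to bind and present in 20.6% of all promoters, matched 1 entry of CDH4. These matches describe the letters in the window only.

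Regulators known to act on CDH1 and related genes moved in both directions. Of 22 tested regulators, 14 rose, 6 fell and 2 did not pass, with a median log2 fold change of 0.74. The number called is near the share over all tested genes, 85.0% (42.0% higher and 43.0% lower). Of the calls, 1 higher (GSC) and 1 lower (FOXC2) passed the filter through 1 group alone, so their difference was built in. Among the regulators with the smallest p, the epithelial factors ELF3 (69.5 ± 2.51 to 330.0 ± 2.52 CPM) and KLF5 (22.5 ± 1.42 to 92.5 ± 1.16 CPM) rose. TCF3, whose product E2A represses CDH1, fell from 222.4 ± 2.79 to 61.1 ± 1.67 CPM. Its fall was 3.63-fold in counts and 2.49-fold in FPKM, with recovered lengths of 7128 bases in control and 4969 in knockout. FOXC2, a mesenchymal forkhead factor, fell from 19.5 ± 0.777 to 0.195 ± 0.0399 CPM (100.7-fold in counts and 169.5-fold in FPKM). It had 3, 4 and 3 counts in the knockout libraries and was tested through the control libraries alone. The best-known CDH1 repressors, named here after their values were seen, did not go one way. SNAI1 fell by 3.20 and ZEB1 by 0.42 on the log2 scale, TWIST1 and TWIST2 rose by 2.76 and 2.81, and ZEB2 (6.69 ± 0.928 and 6.43 ± 0.145 CPM) and SNAI2 (28 and 38 counts) did not pass. GRHL2, an epithelial activator of CDH1, had 3 counts over the control and 0 over the knockout libraries.

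Of 16 tested catenins and linkers, the partners that join cadherins to actin, 11 fell, 4 rose and 1 did not pass (median log2 fold change -0.52), beside 85.0% of all tested genes called and 43.0% called lower. CTNNB1, beta-catenin, fell by 0.34, CTNNA1, alpha-catenin, by 0.39 and CTNND1, p120-catenin, by 0.64 on the log2 scale. JUP, plakoglobin, from the same list rose by 0.81 (161.3 ± 6.68 to 282.3 ± 9.79 CPM). These catenins were named after their values were seen, as parts of the complex at the tails of CDH1 and CDH2. In FPKM CTNNB1, CTNNA1 and CTNND1 fell 1.16-fold, 1.17-fold and 1.59-fold, against 1.27-fold, 1.31-fold and 1.56-fold in counts. JUP rose 2.15-fold in FPKM and 1.75-fold in counts. Vinculin, VCL, fell from 847.0 ± 34.8 to 252.6 ± 4.18 CPM and CTNNAL1, an alpha-catenin relative, from 190.5 ± 9.1 to 19.5 ± 1.78 CPM. KIFC3, a motor of junction microtubules, rose from 55.8 ± 4.63 to 275.6 ± 6.92 CPM and ACTN4, an actin cross-linker, from 628.8 ± 27.9 to 1283.1 ± 47.0 CPM. The rise of KIFC3 was 4.93-fold in counts and 7.37-fold in FPKM, with recovered lengths of 7829 bases in control and 5342 in knockout.

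Among the other 16 tested genes of the cadherin superfamily list, 8 rose and 8 fell (median -0.11), close to the shares over all tested genes. Of these, 3 of the higher and 3 of the lower genes passed the filter through 1 group alone, so their difference was built in. The planar polarity cadherins CELSR1 (log2 fold change 1.31) and CELSR2 (1.19) and the inner-ear cadherin CDH23 (2.77) rose. DCHS2, a Dachsous cadherin, had 3 counts over the control and 400 over the knockout libraries. None of the untested cadherins reached 20 counts in a library. In the desmosome, the junction built on desmosomal cadherins, 4 of 8 tested genes rose and 4 fell (median -0.33), again close to the 42.0% and 43.0% over all tested genes. The cadherins DSC3 (140.5 ± 7.16 to 8.85 ± 0.694 CPM) and DSC2 (34.0 ± 1.19 to 9.58 ± 0.792 CPM; 3.55-fold lower in counts and 8.18-fold in FPKM, with recovered lengths of 5285 and 12408 bases) fell, and the plaque gene PKP3 (15.8 ± 1.02 to 65.3 ± 1.9 CPM) and PERP (194.2 ± 4.21 to 450.6 ± 1.47 CPM) rose. DSG1, DSG3 and DSC1 were at 0 in all libraries.

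**Figure D5:**
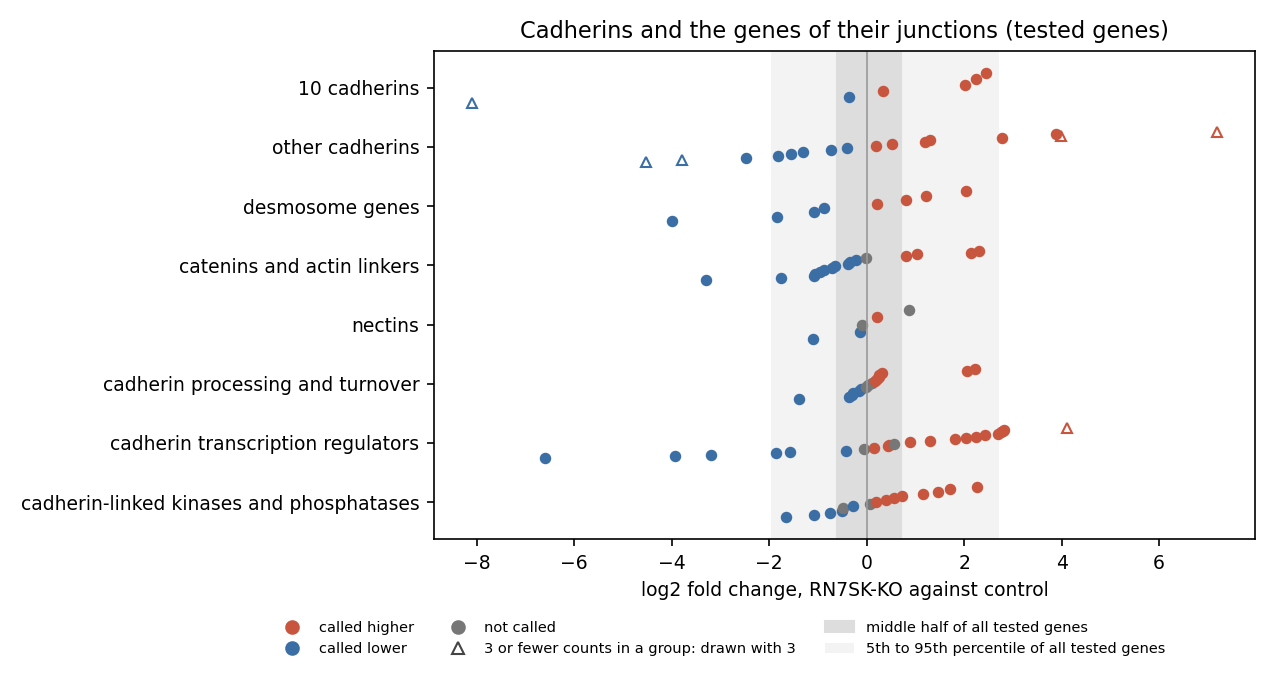
Log2 fold change (knockout against control) of every tested gene of the 10 cadherins and 7 related lists, coloured by call; triangles are genes with 3 or fewer counts in a group, drawn with 3. The bands hold the middle 50% (-0.61 to 0.71) and the 5th to 95th percentile (-1.96 to 2.71) of all tested genes. Catenins and linkers lie mostly below 0 and the transcription regulators mostly above.

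Of 5 tested nectins, which sit beside cadherins in the adherens junction, 1 rose, 2 fell and 2 did not pass (median -0.09). Over all tested genes, 85.0% were called, 42.0% as higher and 43.0% as lower. NECTIN3 fell from 5673 counts over the control to 2409 over the knockout libraries, but had 6.61 ± 0.246 and 6.19 ± 0.5 FPKM (recovered lengths 14733 and 7454 bases), and 0 nectins were called lower on either FPKM scale (limma), PVR had a log2 fold change of -0.13 and NECTIN1 one of 0.22, and NECTIN4 had 21 and 35 counts. Without control replicate 1, 2 nectins were called higher. Of 16 genes that cut, shed or recycle cadherins, 7 rose and 6 fell (median 0.08), near the 42.0% and 43.0% over all tested genes. ARF6, a GTPase of cadherin endocytosis, fell from 322.5 ± 16.2 to 124.3 ± 3.0 CPM and the gamma-secretase subunit NCSTN from 111.5 ± 2.39 to 86.8 ± 2.14 CPM, while the proprotein convertases PCSK6 (6.40 ± 0.976 to 26.7 ± 1.15 CPM) and PCSK5 (0.493 ± 0.131 to 2.34 ± 0.331 CPM) rose. FURIN, the convertase best known for cutting the propeptide of E-cadherin, had 82.0, 74.8 and 93.6 CPM in the control and 90.3, 97.0 and 93.6 CPM in the knockout replicates; the groups overlapped, and the call (edgeR quasi-likelihood adjusted p = 0.0158) was lost at a threshold of 0.01. Of 15 kinases and phosphatases linked to cadherins, 8 rose and 5 fell (median 0.19), and the number called is near the 85.0% over all tested genes. SRC rose from 105.3 ± 3.25 to 504.2 ± 11.2 CPM and its relative YES1 fell from 108.8 ± 3.01 to 51.6 ± 1.93 CPM. FGFR1, a receptor that N-cadherin is known to bind, rose from 74.4 ± 8.37 to 245.4 ± 10.9 CPM, and FGFR4 from 23.9 ± 1.29 to 53.6 ± 1.48 CPM.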

How the data were processed

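Per the labels' protocols, total RNA from 6 samples went into an mRNA library kit. Tools listed by the submitters' processing notes are HISAT2 2.2.1.0, Trimmomatic 0.36 and FastQC 0.11.5, with GRCh38 as the build. Which counter, annotation and strand setting were used is not given in the sources used here. Overlapping or antisense transcripts could therefore share reads. For each library the authors deposited whole-number read counts and FPKM per gene symbol.

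Counts were tested in R 4.3.3 with edgeR 4.0.16 (filterByExpr, TMM, robust glmQLFit, glmQLFTest; two-sided, Benjamini-Hochberg adjusted over 12929 genes, threshold 0.05). CPM use TMM-scaled library sizes. Total counts of 16018260 to 19357144 set the precision; counting intervals are exact, at 95%. Gene lengths were recovered from count over FPKM, after scaling for unlisted genes (98.2% to 98.4% of counts are listed). Alternatives used limma 3.58.1, DESeq2 1.42.0 and other settings. Libraries within each group differed by more than sampling noise. Chi-square over degrees of freedom was 2.96 to 8.3 between control libraries and 1.74 to 2.03 between knockout libraries. The edgeR script was checked on simulated counts in which few genes changed. That check does not cover data in which 85.0% of tested genes are called. Gene locations are from RefSeq GRCh38.p14.

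The members and gene lists were chosen with earlier results of these data known. Named are all 10 members, of each related list the 4 tested genes with the smallest p, and the label-check genes. Any others were chosen after their values were seen.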

Additional observations from a re-analysis of the deposited data

How the results depend on the processing

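The 6 tested cadherins were compared under 19 alternatives. The stricter threshold of 0.01 reused the main fit, so it could change calls but not fold changes. Of the 114 values, 112 kept direction and call, 2 lost the call (CDH2 and CDH24 against a 1.5-fold change) and 0 reversed. The log2 fold change ranged from 2.30 to 2.53 for CDH1, 0.31 to 0.45 for CDH2, 1.76 to 3.06 for CDH6, 1.28 to 2.34 for CDH17, -0.40 to -0.25 for CDH24 and -8.82 to -2.05 for CDH13; the lowest sizes of CDH6, CDH13 and CDH17 come from log2(FPKM + 1), whose pseudocount compresses low genes. Against a 1.5-fold change, 5967 genes were called in place of 10992, 1 cadherin member was lower, 7 catenins and linkers were lower, 2 processing genes were higher and 1 lower, 5 kinases and phosphatases were higher and 3 lower, and 0 nectins were higher and 1 lower. With a mean of at least 1 CPM, 4 other cadherins were lower, as fewer were tested. Nectins gave 2 higher and 1 lower with upper quartile scaling, 0 higher and 1 lower with recovered lengths as an offset, and 0 lower on both log2(FPKM + 0.1) and log2(FPKM + 1); the cause was not tested. Leaving out each library in turn gave 1 to 2 nectins higher. A common length gave the shares of CDH1 (20.9% and 55.2%) and CDH6 (2.23% and 4.40%). With the replicate number as a block, 10910 genes were called and the 6 cadherin calls were kept, CDH1 at 2.44; same-numbered libraries did not deviate together (correlations 0.011, -0.044 and -0.003), so the numbers give no pairing. Depth limits CDH3, CDH4, CDH11 and CDH18, with at most 13 counts in a library.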
